A study of Homo sapiens with 6 samples.

Results

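The genes that store, sense and move zinc were compared between HS578T cells carrying an EP300 expression vector and HS578T cells carrying the empty vector. The group holds 36 genes chosen by symbol, which are the metal-responsive transcription factor MTF1, 11 metallothioneins, 10 SLC30 transporters and 14 SLC39 transporters. Probe sets annotated to these symbols were taken from the deposited table, and 35 of the 36 genes were measured, each by 1 probe set, among 17687 named genes in all. MT1A had no probe set annotated to it and is not analysed here.

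HS578T is a human breast carcinoma line. The EP300 group consisted of 3 cultures stably transfected with pcDNA 3 into which EP300 cDNA had been cloned, and the control group of 3 cultures stably transfected with pcDNA 3 alone. Transfectants were selected with G418 as pools of clones, and all cultures, controls included, grew in low-glucose DMEM with fetal calf serum, glutamine, insulin and G418. Whether the 3 cultures of a group shared a pool is not stated, so p-values measure the spread between cultures, which may not include a spread between transfections.

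Zinc inside cells is buffered by metallothioneins, small cysteine-rich proteins that bind zinc and copper and that also take up cadmium. Most transporters of the SLC30 family (ZnT) carry zinc out of the cytosol, across the plasma membrane or into vesicles and organelles. Those of the SLC39 family (ZIP) carry zinc into the cytosol. MTF1 binds metal response elements upstream of metallothionein genes and of SLC30A1 when zinc is abundant. In mouse cells, MTF1 has been found with the acetyltransferase encoded by Ep300 at a metallothionein promoter.

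The values are log2 array signals, a scale inferred from the values, and the medians of the 6 arrays lay between 4.456 and 4.497. The number of arrays limits the precision. No detection calls were used, so a gene below the lower quartile of the arrays (3.468 to 3.495) may be at background. All 9 mesenchymal markers examined, VIM and SPARC among them, lay above the upper quartile on all 6 arrays. Of 7 epithelial markers, KRT8 and KRT18 did so on all arrays and the other 5, CDH1 and EPCAM included, on none. KRT18, a keratin of simple epithelia named after its value was seen, read 9.82, 10.15 and 10.08 in the EP300 cultures, against 11.42, 10.85 and 11.10 in the control cultures. Its difference of -1.11 ± 0.23 SE (limma adjusted p = 0.592) was larger in size than that of any gene of the zinc group. The epithelial markers had no common direction, with 2 of 7 lower and 5 higher on average in EP300 cultures. KRT8 differed by 0.37, and CDH1, below the lower quartile on 5 of 6 arrays, by 0.71. Whether such differences had a part in the results below was not tested. The level of EP300 itself was not analysed here, because no named probe set carried that symbol.

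No gene of the group passed the test. By limma, with Benjamini-Hochberg adjustment over all 21448 probe sets, 0 of 35 members had an adjusted p below 0.05, as had 0% of all probe sets. At an unadjusted p below 0.05 the count was 0 of 35 members, where 6.52% of all probe sets were counted (3.45% higher and 3.07% lower in EP300 cultures). The smallest adjusted p among the members was 0.787. Of 34 members that varied between arrays, 20 averaged lower and 14 higher in EP300 cultures, where 49.7% of all probe sets averaged lower and 50.2% higher. An absolute difference over 0.5 on the log2 scale was seen for 2 members and for 11.1% of all probe sets. The median difference was -0.07 over the members and 0.001 over all probe sets.

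**Figure D1:**
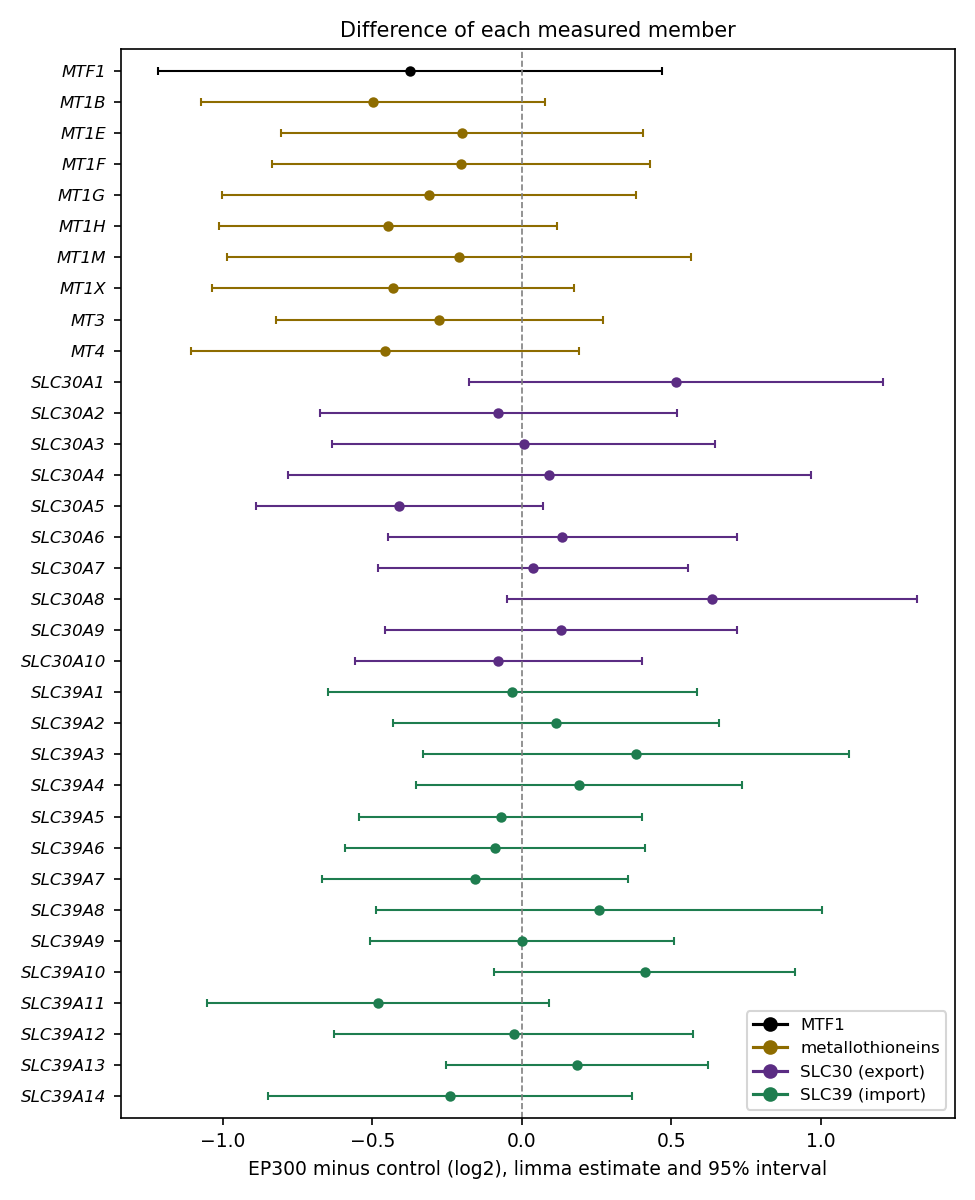
Difference in log2 level between EP300 and control cultures (x axis) for the 34 members that varied between arrays, with the limma estimate as a point and its 95% interval as a bar, coloured by family. Every interval includes 0, and the 9 metallothioneins all lie left of it.

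MTF1, the transcription factor that switches on metallothionein genes in response to metal, read 8.67, 7.18 and 7.70 in the EP300 cultures, against 7.94, 8.72 and 8.02 in the control cultures. One EP300 culture was close to the highest control, and the other EP300 cultures were below all controls. MTF1 differed by -0.37 (95% interval from -1.22 to 0.47, limma adjusted p = 0.903). It was -0.78 without EP300 replicate 1 and -0.04 without EP300 replicate 2, so the size rested on which culture was included.

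The metallothionein genes lie side by side on chromosome 16. As background, MTF1 is known to act through metal response elements upstream of these genes, and the sequences are shown so that the elements can be seen in some of the genes described here. Whether MTF1 had a part in any difference between arrays was not tested. RefSeq promoter sequences (build GRCh38.p14) were matched by symbol for 27 of the 36 genes, 5 of them metallothioneins. The 250 bases before the annotated gene start are printed 5′ to 3′ on the strand of the gene, in lower case. Capitals mark matches to the core of the metal response element, searched as TGCACNC or TGCGCNC and, on the opposite strand, as GNGTGCA or GNGCGCA.
MT2A, chr16:56608334-56608583, plus strand: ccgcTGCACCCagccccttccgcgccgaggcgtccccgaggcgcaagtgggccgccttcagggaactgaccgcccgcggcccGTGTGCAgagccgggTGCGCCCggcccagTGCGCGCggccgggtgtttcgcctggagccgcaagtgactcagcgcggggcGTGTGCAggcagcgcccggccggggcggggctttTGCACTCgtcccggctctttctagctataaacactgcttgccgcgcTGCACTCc
MT1X, chr16:56682220-56682469, plus strand: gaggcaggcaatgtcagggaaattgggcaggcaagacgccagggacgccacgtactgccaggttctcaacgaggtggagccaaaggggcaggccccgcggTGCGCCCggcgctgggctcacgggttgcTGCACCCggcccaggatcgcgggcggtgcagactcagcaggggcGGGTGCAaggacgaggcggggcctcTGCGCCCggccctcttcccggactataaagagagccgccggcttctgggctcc
MT1H, chr16:56669564-56669813, plus strand: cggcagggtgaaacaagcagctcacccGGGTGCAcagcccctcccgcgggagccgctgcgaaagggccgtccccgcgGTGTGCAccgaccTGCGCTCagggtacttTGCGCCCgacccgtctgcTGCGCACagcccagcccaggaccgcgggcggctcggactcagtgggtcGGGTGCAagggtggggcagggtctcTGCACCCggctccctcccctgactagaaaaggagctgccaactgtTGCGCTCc
MT1B, chr16:56651636-56651885, plus strand: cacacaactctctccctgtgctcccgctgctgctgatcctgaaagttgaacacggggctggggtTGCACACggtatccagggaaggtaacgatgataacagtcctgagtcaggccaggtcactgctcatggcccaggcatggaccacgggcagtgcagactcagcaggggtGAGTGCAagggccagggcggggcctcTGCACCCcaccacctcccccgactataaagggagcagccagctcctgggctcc
SLC30A1, chr1:211579162-211579411, minus strand: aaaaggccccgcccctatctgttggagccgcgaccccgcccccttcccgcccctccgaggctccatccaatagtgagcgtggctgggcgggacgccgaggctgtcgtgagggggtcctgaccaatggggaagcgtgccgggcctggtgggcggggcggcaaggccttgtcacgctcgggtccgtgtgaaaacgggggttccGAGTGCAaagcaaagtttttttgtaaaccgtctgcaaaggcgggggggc

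MT2A held 7 matches in this window, MT1H 8, MT1X 4, and MT1B and MT4 3 each. At least 3 matches were found in 5 of 5 metallothionein promoters, in 1 of 30 promoters of the transporter genes (that of SLC30A2) and in 1.58% of all 35116 promoters in the table. At least 1 match was found in 24.8% of all promoters. SLC30A1, the zinc exporter of the plasma membrane and a known MTF1 target, held 1 match, on the opposite strand, and MTF1 itself held 0. MT1X, MT1H and MT1B each held a match that begins 53 bases before the gene start. Metal response elements were already known upstream of metallothionein genes, so these counts illustrate the element and do not test for an excess. A match describes these letters only and is not evidence of binding.

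**Figure D2:**
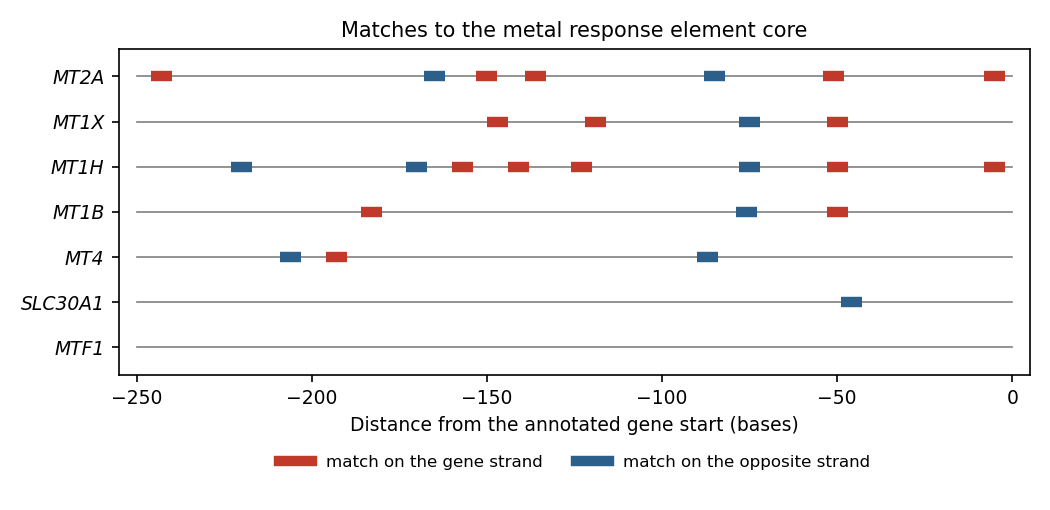
Position of each match to the metal response element core (x axis, bases from the annotated gene start) in the 250 bases upstream of 7 genes of the group, by strand. MT2A, MT1X, MT1H, MT1B and MT4 hold between 3 and 8 matches, SLC30A1 holds 1 and MTF1 holds 0.

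Among the metallothioneins, MT2A, the main broadly expressed form, read 19.93 on all 6 arrays, the ceiling of the table. It was 1 of 15 probe sets saturated on every array and gave no information on a difference. In all 19 probe sets were constant, the marker VIM at 18.60 among them, so flat values also occurred below the ceiling. The other 9 measured genes each averaged lower in EP300 cultures, by -0.20 to -0.50 on the log2 scale, and none passed the test (limma adjusted p from 0.792 to 0.939). The groups overlapped for each of them, where they did not overlap for 12.2% of all probe sets. Over the 10 measured genes the median difference was -0.29. In bulk cultures, fewer expressing cells and less RNA per cell cannot be told apart.

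The MT1 genes encode the inducible isoforms found in most tissues, and their control cultures did not read alike. MT1X read 15.36, 15.56 and 15.42 in the EP300 cultures, against 16.36, 15.92 and 15.37 in the control cultures. MT1G read 13.45, 13.35 and 13.43 in the EP300 cultures, against 14.23, 13.94 and 12.99 in the control cultures. In both genes control replicates 1 and 2 were above every EP300 culture, while control replicate 3 lay at the low end of the EP300 range for MT1X and below it for MT1G. The difference was -0.43 for MT1X (95% interval from -1.04 to 0.17, limma adjusted p = 0.830) and -0.31 for MT1G (-1.004 to 0.38, adjusted p = 0.902).

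MT1B had the largest difference of the family. It read 17.19, 16.97 and 16.86 in the EP300 cultures, against 17.78, 17.72 and 17.02 in the control cultures. Control replicate 3 was again inside the EP300 range and the other controls above it, and MT1B differed by -0.50 (95% interval from -1.07 to 0.08, limma adjusted p = 0.792). MT1H read 9.38, 9.05 and 9.14 in the EP300 cultures, against 9.83, 9.90 and 9.18 in the control cultures, with the same arrangement and a difference of -0.45 (-1.01 to 0.12, adjusted p = 0.810).

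MT1E read 12.38, 12.29 and 12.44 in the EP300 cultures, against 13.04, 12.63 and 12.04 in the control cultures. The EP300 cultures lay between control replicates 2 and 3, so the difference of -0.20 (95% interval from -0.81 to 0.41, limma adjusted p = 0.926) came with controls on both sides. MT1M read 10.85, 11.04 and 10.51 in the EP300 cultures, against 11.83, 10.74 and 10.45 in the control cultures. MT1F read 7.43, 7.88 and 7.45 in the EP300 cultures, against 8.30, 7.76 and 7.32 in the control cultures. For MT1M and MT1F only control replicate 1 stood above all EP300 cultures, and the differences were -0.21 (-0.99 to 0.57, adjusted p = 0.939) and -0.20 (-0.84 to 0.43, adjusted p = 0.926).

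**Figure D3:**
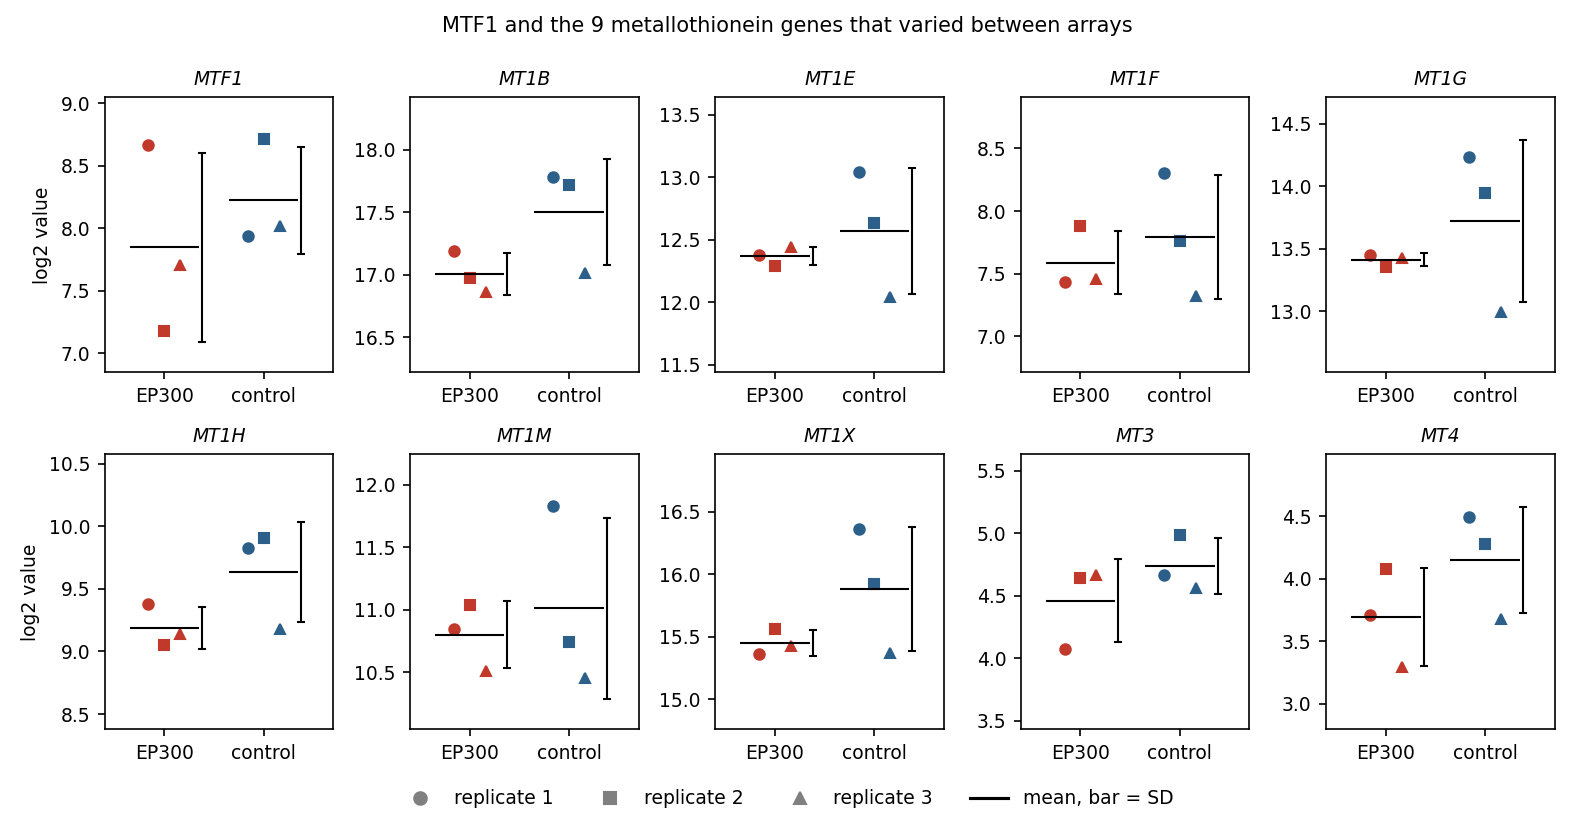
Log2 value (y axis, with the same span of 2.2 in each panel) of MTF1 and the 9 metallothionein genes that varied, in the 3 EP300 and 3 control cultures; symbols give the replicate, lines the mean and bars the SD. In the 7 MT1 genes the EP300 points sit close together, and the control points spread, with replicate 3 lowest.

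The spread within the controls was thus wider than the difference between the groups. The 7 MT1 genes each spanned 0.101 to 0.526 from lowest to highest culture within the EP300 group, and 0.727 to 1.377 within the control group. The SD was larger in control than in EP300 cultures for 7 of the 7 genes, where this held for 49.1% of all varying probe sets. The median SD over the 7 genes was 0.166 in EP300 and 0.497 in control cultures, against 0.284 and 0.279 over all varying probe sets. As deviations from the 6-array mean, the MT1 genes averaged -0.13, -0.12 and -0.24 in the EP300 cultures, against 0.63, 0.24 and -0.37 in the control cultures. Control replicate 1 was the highest of the 6 arrays for 6 of the 7 genes, and control replicate 3 the lowest for 4. MT1 transcripts resemble each other closely and may hybridise to each other's probes, so the 7 genes are not 7 independent measurements. For the same reason a value, that of MT1B included, may not come from the named gene alone.

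Which control culture was included set the size of the difference. Without control replicate 3 the median over the 10 metallothioneins was -0.58 and all 9 varying genes averaged lower. Of these, 5 (MT1B, MT1G, MT1H, MT1X and MT4) had an unadjusted limma p below 0.05, as had 6.45% of all probe sets, none passing the adjustment. Control replicate 3 was the lowest control for each of the 9 genes. Leaving it out therefore enlarges their differences by construction, and this count is not a test. Without control replicate 1 the median was -0.12, and 6 of the 9 genes averaged lower, with MT1E, MT1F and MT1M at 0.03, 0.05 and 0.20. Over all probe sets, the SD of an array's deviations from the 6-array mean was 0.344 for control replicate 1 and 0.338 for control replicate 3. Both were within the range of the other arrays (0.322 to 0.349). This SD cannot show a difference limited to a small set of genes, and the cause of the spread between controls was not tested.

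MT3, best known from brain, and MT4, from squamous epithelium, read close to or below the array medians. MT3 read 4.08, 4.64 and 4.67 in the EP300 cultures, against 4.66, 4.99 and 4.56 in the control cultures. MT4 read 3.71, 4.08 and 3.29 in the EP300 cultures, against 4.50, 4.28 and 3.68 in the control cultures. Neither gene separated the groups, and the differences were -0.28 (95% interval from -0.82 to 0.27, limma adjusted p = 0.893) and -0.46 (-1.11 to 0.19, adjusted p = 0.834). Folds are left out at these levels, where signal and background cannot be separated. The difference of MT3 was -0.08 without EP300 replicate 1, and that of MT4 was -0.26 without EP300 replicate 3.

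Of 9 listed metallothionein pseudogenes and relatives, 3 were measured and 0 passed. MT1L, a transcribed pseudogene beside MT1E, read 14.07, 14.13 and 13.85 in the EP300 cultures, against 15.24, 14.60 and 13.98 in the control cultures. It had the same order of control arrays as MT1X and a difference of -0.59 ± 0.31 SE (limma adjusted p = 0.792). That difference was -0.91 without control replicate 3 and -0.28 without control replicate 1. MT1HL1 on chromosome 1 differed by -0.54 ± 0.27 (adjusted p = 0.791) and did not share that order, with 3.43, 3.12 and 3.69 in the EP300 cultures, against 4.23, 3.47 and 4.17 in the control cultures. It lay below the median on all 6 arrays and below the lower quartile on 2. At such levels signal and background cannot be separated, and the order of its arrays may carry no information. The third, the pseudogene MT1IP, named after its value was seen, differed by 0.07 ± 0.22 (adjusted p = 0.973).

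The SLC30 family had no common direction, with 3 of 10 genes lower and 7 higher on average and a median difference of 0.06. SLC30A1 read 7.01, 6.31 and 6.12 in the EP300 cultures, against 5.78, 5.64 and 6.48 in the control cultures. Control replicate 3 was the highest control for SLC30A1, as for several other transporters, and lay inside the EP300 range. The difference was 0.52 on the log2 scale, a 1.43-fold ratio (95% interval of the log2 difference from -0.18 to 1.21, limma adjusted p = 0.821). It was 0.25 without EP300 replicate 1 and 0.77 without control replicate 3.

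SLC30A5, SLC30A6 and SLC30A7 load zinc into the early secretory pathway, where SLC30A5 and SLC30A6 act as a pair. SLC30A5 read 10.09, 10.22 and 10.01 in the EP300 cultures, against 10.61, 10.68 and 10.27 in the control cultures. All EP300 cultures were below all control cultures, a separation in this direction that 5.91% of all probe sets showed, and an exact two-sided permutation test over the arrays gave p = 0.1, its minimum with 3 against 3. The difference of -0.41 (1.33-fold lower, 95% interval from -0.89 to 0.07) did not pass (limma adjusted p = 0.792). Its partner SLC30A6 read 8.64, 7.75 and 8.40 in the EP300 cultures, against 8.04, 8.21 and 8.13 in the control cultures, so that the EP300 cultures lay on both sides of the controls. The difference of SLC30A6 was 0.13 (-0.45 to 0.72, adjusted p = 0.950), and -0.05 without EP300 replicate 1. SLC30A7 differed by 0.04.

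SLC30A8, the transporter of insulin granules, had the largest difference of the group, at levels around the lower quartile of the arrays. It read 3.20, 4.15 and 4.11 in the EP300 cultures, against 2.82, 3.21 and 3.51 in the control cultures. EP300 replicate 1 lay among the controls, and the groups differed by 0.64 (95% interval from -0.05 to 1.32, limma adjusted p = 0.787). The other vesicle transporters SLC30A2, SLC30A3 and SLC30A4 differed by -0.08, 0.01 and 0.09, with adjusted p from 0.974 to 0.998. SLC30A9, found in mitochondria, differed by 0.13 ± 0.26 SE, and SLC30A10, a manganese exporter, by -0.08 ± 0.21, with SLC30A10 below the lower quartile on all 6 arrays.

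The SLC39 importers were evenly divided, with 7 of 14 genes lower and 7 higher on average and a median difference of -0.01. Of the 10 that carry zinc or other metals in at the plasma membrane, 5 averaged lower and 5 higher, with differences from -0.24 to 0.41. SLC39A10 and SLC39A6 encode related transporters that form a complex, and SLC39A6 is known in breast cancer as an oestrogen-regulated gene. SLC39A10 read 8.36, 8.01 and 8.52 in the EP300 cultures, against 8.02, 7.70 and 7.94 in the control cultures, with the lowest EP300 culture level with the highest control. Its difference was 0.41 (1.33-fold, 95% interval of the log2 difference from -0.09 to 0.91, limma adjusted p = 0.807). SLC39A6 differed by -0.09 (-0.59 to 0.41, adjusted p = 0.963).

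SLC39A3, an importer of the plasma membrane, read 6.75, 7.25 and 7.02 in the EP300 cultures, against 6.40, 6.13 and 7.34 in the control cultures. Control replicate 3 was above all EP300 cultures and the other controls below them. The difference was 0.38 (95% interval from -0.33 to 1.09, limma adjusted p = 0.887), 0.74 without control replicate 3 and 0.14 without control replicate 2.

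SLC39A8 and SLC39A14 import manganese and iron as well as zinc. SLC39A8 read 5.50, 4.49 and 5.06 in the EP300 cultures, against 4.70, 4.26 and 5.31 in the control cultures, with wide spread in both groups. Its difference of 0.26 (95% interval from -0.49 to 1.005, limma adjusted p = 0.924) was 0.01 without control replicate 2 and 0.53 without control replicate 3. SLC39A14 read 9.23, 9.91 and 9.19 in the EP300 cultures, against 9.34, 9.95 and 9.76 in the control cultures, a difference of -0.24 (-0.85 to 0.37). The remaining importers of the plasma membrane, SLC39A1, SLC39A2, SLC39A4, SLC39A5 and SLC39A12, differed by -0.07 to 0.19.

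**Figure D4:**
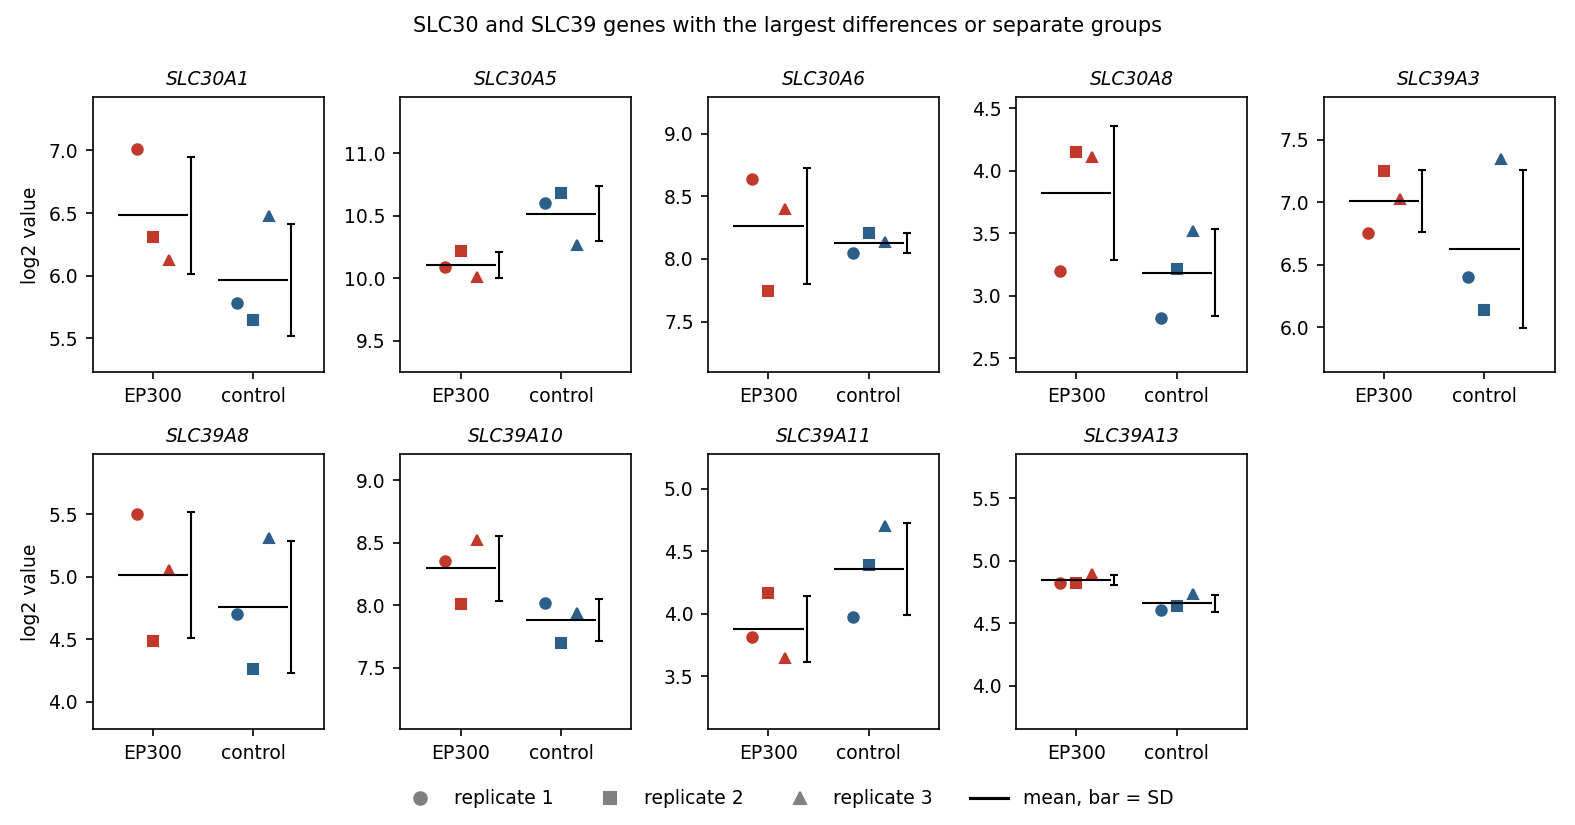
Log2 value (y axis, with the same span of 2.2 in each panel) of 9 SLC30 and SLC39 genes in the 3 EP300 and 3 control cultures; symbols give the replicate, lines the mean and bars the SD. The groups are separate for SLC30A5 and SLC39A13 and overlap for the other 7 genes.

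The other 4 SLC39 genes encode transporters found in the Golgi, the endoplasmic reticulum or vesicles. SLC39A13, for which the groups did not overlap, was chosen after its values were seen. It read 4.82, 4.83 and 4.89 in the EP300 cultures, against 4.61, 4.63 and 4.74 in the control cultures. The separation was small, at 0.18 on the log2 scale (95% interval from -0.25 to 0.62, limma adjusted p = 0.907), and 6.3% of all probe sets were separate in this direction. Separate groups of 3 against 3 always give an exact two-sided permutation p of 0.1. That test therefore adds nothing for a gene chosen because its groups were separate.

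SLC39A11 read 3.82, 4.16 and 3.65 in the EP300 cultures, against 3.98, 4.39 and 4.70 in the control cultures. The groups overlapped at the lowest control, and SLC39A11 differed by -0.48 (95% interval from -1.05 to 0.09, limma adjusted p = 0.794). It was -0.31 without control replicate 3. SLC39A7, which releases zinc from the endoplasmic reticulum, differed by -0.16 ± 0.23 SE. SLC39A9 had equal means of 5.69 in EP300 and 5.69 in control cultures, with an interval of the difference from -0.51 to 0.51.

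**Figure D5:**
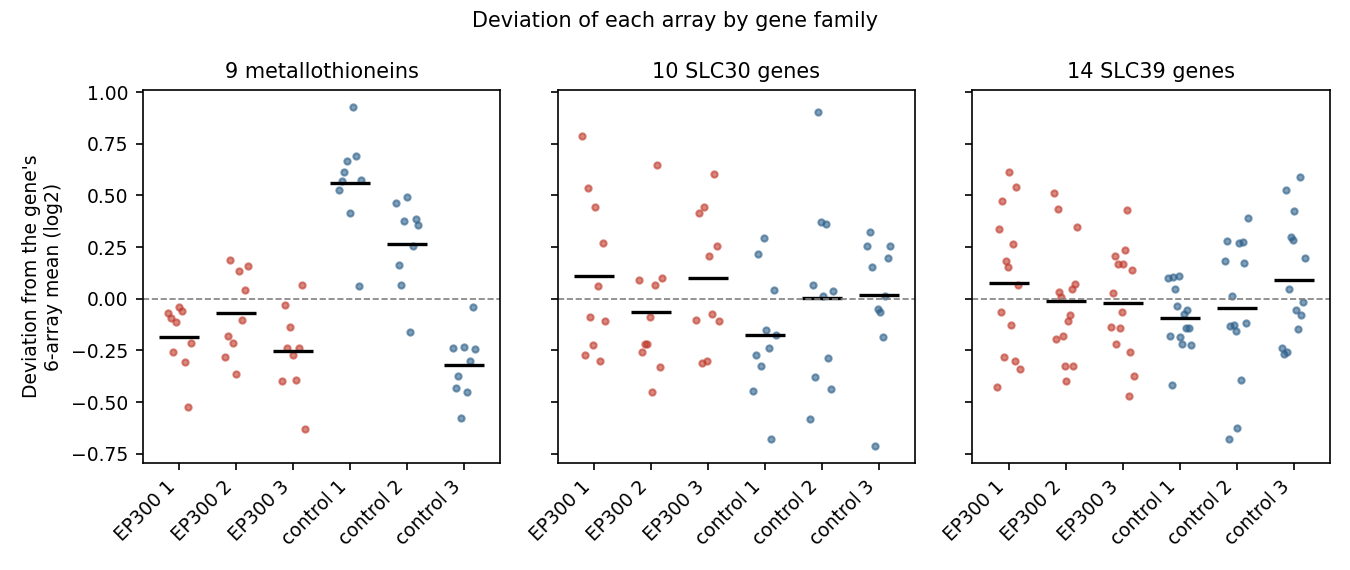
Deviation of each gene from its own 6-array mean (y axis, log2) on each array for the 9 varying metallothioneins, 10 SLC30 genes and 14 SLC39 genes; points are genes and lines their mean. Metallothioneins averaged -0.19, -0.07 and -0.25 on the EP300 arrays and 0.56, 0.27 and -0.32 on the control arrays, and the transporter families stayed between -0.17 and 0.11 on every array.

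The family averages of the transporters lay closer to 0 than those of the metallothioneins, while single members went both ways. SLC30A5 deviated by -0.23, -0.09 and -0.30 in the EP300 cultures, against 0.29, 0.37 and -0.05 in the control cultures, with replicate 3 the lowest control as in MT1B. Among the controls, replicate 3 was the highest for SLC30A1 and SLC39A3. This was not particular to them, since it also held for SLC30A2, SLC30A9, SLC39A6, SLC39A8 and some other transporters, and not for the rest. The 10 SLC30 genes averaged deviations of 0.11, -0.07 and 0.10 in the EP300 cultures, against -0.17, 0.01 and 0.02 in the control cultures. The 14 SLC39 genes averaged 0.08, -0.01 and -0.02 in the EP300 cultures, against -0.09, -0.05 and 0.09 in the control cultures. The SD was larger in control cultures for 4 of the 10 SLC30 and 7 of the 14 SLC39 genes.

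Other genes of metal handling were read beside the group, and 0 of them passed the limma test adjusted over all probe sets. Of 9 further zinc genes, 0 had an unadjusted p below 0.05, where 6.52% of all probe sets were counted. ZNG1B, which has near-identical copies and is therefore uncertain, differed by 0.44 ± 0.30 SE (limma adjusted p = 0.854, and 0.10 without control replicate 3). TRPM7, a channel kinase that passes zinc and magnesium, differed by 0.34 ± 0.36 (adjusted p = 0.907, and 0.06 without EP300 replicate 2).

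Of 12 measured copper genes, 0 had an unadjusted p below 0.05 and the groups did not overlap for 2, in opposite directions, where 6.52% and 12.2% of all probe sets were counted by these rules. SOD1, the copper and zinc superoxide dismutase, read 10.42, 10.33 and 10.37 in the EP300 cultures, against 9.65, 10.25 and 9.82 in the control cultures (difference 0.47 ± 0.23 SE, limma adjusted p = 0.787). SLC31A1, the copper importer, read 10.13, 10.07 and 10.07 in the EP300 cultures, against 10.63, 10.46 and 10.31 in the control cultures (-0.37 ± 0.20, adjusted p = 0.806).

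Of 19 measured iron genes, 1 was higher and 2 lower at an unadjusted p below 0.05, where 3.45% of all probe sets were higher and 3.07% lower. TFRC, the transferrin receptor that brings in iron, read 11.79, 12.05 and 11.66 in the EP300 cultures, against 10.83, 11.48 and 11.19 in the control cultures. Its groups were separate and the difference was 0.67 ± 0.24 SE (limma adjusted p = 0.746). The lower genes were SLC25A28 at -0.58 ± 0.22 (adjusted p = 0.748) and SLC25A37 at -0.72 ± 0.29 (adjusted p = 0.748), and SLC25A37 was named after its value was seen. Both encode mitoferrins, which carry iron into mitochondria.

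Of 14 measured genes of the metal and oxidant stress response, 3 were higher and 0 lower at an unadjusted p below 0.05, where 3.45% and 3.07% of all probe sets were. The groups were separate for 5 of the 14 as higher and for 1 as lower, against 6.3% and 5.91% of all probe sets. This list, like the others, was chosen with earlier results of these data known, so these counts describe the list and do not test it. The higher genes were SLC7A11, NQO1, TXNRD1, SQSTM1 and HSF1, of which the first 3 had the unadjusted p below 0.05, and the lower gene was GCLM. SLC7A11 and NQO1 were named as the 2 with the smallest p, and the others after their values were seen. SLC7A11, the cystine importer, read 10.84, 10.69 and 10.61 in the EP300 cultures, against 9.93, 9.75 and 9.99 in the control cultures, a difference of 0.83 ± 0.20 SE (limma adjusted p = 0.735). NQO1, a quinone reductase, read 13.44, 13.23 and 13.67 in the EP300 cultures, against 12.92, 12.59 and 12.71 in the control cultures, a difference of 0.71 ± 0.22 (adjusted p = 0.735). The EP300 cultures were above all controls for both genes. The list's median difference was 0.10.

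Other regulators known to act on metallothionein genes had a median difference of -0.02 over 8 genes. Of these, 0 had an unadjusted p below 0.05, where 6.52% of all probe sets were counted. HIF1A, named after its values were seen, stayed between 16.40 and 16.44 on all arrays and gave almost no information on a difference. STAT3, a transcription factor of cytokine signalling, differed by 0.37 ± 0.21 SE (limma adjusted p = 0.818). It was the only 1 of the 8 with separate groups, where 6.3% of all probe sets were separate in this direction. CREBBP, the paralog of EP300, differed by 0.26 ± 0.30 (adjusted p = 0.915, and -0.05 without EP300 replicate 3).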

How the data were processed

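RNA from 6 cultures was measured on Affymetrix arrays, 1 array per culture, with Qiagen extraction and the WT PLUS reagents, per the labels' protocols. The authors deposited 1 value per probe set, taken here as log2 from its range, and used Partek 6.6 per the submitters' processing notes. How background was corrected, how arrays were normalized and which genome build was used were not given in the sources. Probe sets were named from the platform annotation, which gave 1 symbol for 17709 of 21448 and none for the others. EP300 and control arrays (3 each) were compared by limma 3.58.1 (lmFit, then eBayes; R 4.3.3), without filter or covariate, with Benjamini-Hochberg adjustment over all probe sets at 0.05. The fit was tested on simulated data. A probe set was constant if its values agreed within 0.001. The members and lists were chosen with earlier results of these data known. Named were MTF1, all metallothioneins, the 4 transporters of each family with the largest difference (and any with an unadjusted p below 0.05), and the 2 genes with the smallest p of each other list. Same-numbered replicates were not paired, since their deviations from the group means correlated at -0.002 to -0.009 (3 pairs). Alternatives covered normalization, filter, variance model, replicate block and leaving out each array.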

Additional observations from a re-analysis of the deposited data

How the results depend on the processing

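No member passed the adjusted limma test in any setting run, which were the replicate block, leaving out each array, a robust variance trend, quantile normalization, median centring, a filter at the median level, and a single probe set for each gene. With a variance trend and robust estimation 4 probe sets in all passed, none of them a member, and 2 members (MT1B and MT1X, both lower) had an unadjusted p below 0.05, as had 6.78% of all probe sets. With the replicate block this count was 1 (SLC30A8), against 6.04% of all probe sets, the number of adjusted calls was 0, and no call changed. Leaving out 1 array gave 0 to 9 members at an unadjusted p below 0.05, against a share of 5.71% to 6.45% of all probe sets. The 9 came without control replicate 3 and were 5 metallothioneins, SLC30A1, SLC30A5, SLC30A8 and SLC39A3. For each of them control replicate 3 was the control furthest towards the EP300 side. Leaving it out enlarges their differences by construction.

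The median of the metallothioneins ran from -0.58 to -0.12 when 1 array was left out, that of the SLC30 genes from 0.02 to 0.17 and that of the SLC39 genes from -0.0249 to 0.0909. Among probe sets above the median level the SLC39 median was 0.18, over the 9 genes left there. Because each member had 1 probe set, averaging probe sets per gene changed nothing, and without the saturated MT2A probe set the metallothionein median was -0.31. Leaving out 1 array turned the sign of 5 of the named differences, which then ran from -0.47 to 0.0342 for MT1E, -0.44 to 0.0516 for MT1F, -0.49 to 0.20 for MT1M, -0.0543 to 0.39 for SLC30A6 and -0.0517 to 0.45 for CREBBP. The cause was not tested. The settings for the genes outside the group and for SLC39A13, and the count of metallothioneins that averaged lower (6 to 9), were added after seeing the data. Without detection calls, differences at low levels cannot be told from background.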
